A study of Mus musculus with 45 samples.

Results

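The liver makes glucose from lactate, amino acids and glycerol during fasting, and 9 genes of this pathway were followed here in mouse liver RNA. They were taken by symbol from the deposited count tables, where each of the 9 was found among 23227 genes. *G6pc* encodes the catalytic subunit of glucose-6-phosphatase, which frees glucose from glucose 6-phosphate, and *Slc37a4* encodes the transporter that brings glucose 6-phosphate to that enzyme in the endoplasmic reticulum. *Pcx* encodes pyruvate carboxylase, which makes oxaloacetate from pyruvate, and *Pck1* and *Pck2* encode the cytosolic and the mitochondrial form of phosphoenolpyruvate carboxykinase, which turns oxaloacetate into phosphoenolpyruvate. *Fbp1* encodes fructose-1,6-bisphosphatase. *Gpd1* encodes the cytosolic glycerol-3-phosphate dehydrogenase, on the way from glycerol, and *Ldha* encodes the A subunit of lactate dehydrogenase, on the way from lactate. *Ppargc1a* encodes PGC-1α, a coactivator that fasting induces in liver.

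Gluconeogenesis runs many of the steps of glycolysis in reverse and replaces the irreversible ones with enzymes of its own, among them those of *Pcx*, *Pck1*, *Fbp1* and *G6pc*. Glucagon, acting through cyclic AMP and the transcription factor CREB, and FoxO factors raise transcription of *Pck1* and *G6pc* in the fasted liver, and insulin lowers it. Metformin, a drug given for type 2 diabetes, lowers glucose output by the liver.

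All 45 libraries were poly(A) RNA from livers of wild-type C57BL/6J mice that were killed at 24 weeks of age after an overnight fast, and the labels do not give the sex. They fell into 14 groups on 3 diets, high-fat diet (HFD) for 16 weeks, HFD for 6 weeks and chow. On 16-week HFD, begun at 8 weeks of age, there were 3 libraries without treatment (basal), 3 each at 15, 60 and 120 min and 6 at 30 min after 1 U/kg insulin injected into the peritoneum, and 3 from mice on metformin. On 6-week HFD, begun at 18 weeks of age, there were 3 basal and 3 metformin libraries. On chow there were 3 basal libraries, 3 at each of the same 4 times after insulin and 3 with metformin. Metformin was given in the drinking water at 270 mg/kg of lean body mass per day from 8 or 18 weeks of age, and the labels do not say which start the chow mice had. Time on HFD and age at its start cannot be told apart, and no injection of vehicle is described for the basal mice. The study's design text states 3 or more mice for each group. Nothing else in the labels ties a library to a mouse, so p-values measure the spread between libraries.

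Libraries held 18193181 to 50253493 gene counts, and all 9 genes were among the 14067 that passed the filter on low counts. Fold changes are log2 values ± standard error (SE) from edgeR's quasi-likelihood test over all 45 libraries, with Benjamini-Hochberg adjustment over all genes tested, and a gene was called at an adjusted p below 0.05. Levels are in CPM, gene counts scaled to a common library size with edgeR's TMM factors. The defining hepatocyte mRNAs *Alb*, *Apoa1*, *Ttr*, *Apob* and *Serpina1b* each reached 2643 CPM or more in every library. The summed level of 5 macrophage markers was 135 to 623 CPM on 16-week HFD, 96.6 to 197 CPM on 6-week HFD and 74.9 to 360 CPM on chow. The 5 pancreatic acinar markers together reached 12469 CPM in 1 library on 16-week HFD and 1729 CPM in 1 on chow, and 5 skeletal muscle markers reached 928 CPM in 1 library on 6-week HFD. Of the erythroid markers, *Hba-a1* and *Hbb-b1* were at 0 throughout, but *Alas2* was present in every library. It ran from 92.9 to 174 CPM on 16-week HFD, 98.4 to 133 CPM on 6-week HFD and 60.6 to 95.9 CPM on chow. In whole liver, fewer cells of a type and less RNA per cell cannot be told apart.

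The stretches before the start sites of *G6pc*, *Pck1*, *Fbp1* and *Ppargc1a* are shown because these were the genes lower on 16-week HFD in the most settings. Each is the 250 bases before the start in RefSeq on GRCm38.p6, 5′ to 3′ on the gene's own strand. The 4 motifs searched on both strands were CAAAACA (the core of insulin response sequences to which FoxO factors bind), GTAAACA (a forkhead motif), and ACGTCA and ACGTAA (parts of cyclic AMP response elements), and capitals mark their matches. *G6pc* lies at chr11:101367466-101367715 (+), *Pck1* at chr2:173152823-173153072 (+), *Fbp1* at chr13:62888283-62888532 (−) and *Ppargc1a* at chr5:51567726-51567975 (−).
G6pc: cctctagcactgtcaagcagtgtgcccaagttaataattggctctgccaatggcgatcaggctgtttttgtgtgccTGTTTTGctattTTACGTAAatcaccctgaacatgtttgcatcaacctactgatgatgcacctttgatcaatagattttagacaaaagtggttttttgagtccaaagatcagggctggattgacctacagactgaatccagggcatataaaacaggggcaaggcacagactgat
Pck1: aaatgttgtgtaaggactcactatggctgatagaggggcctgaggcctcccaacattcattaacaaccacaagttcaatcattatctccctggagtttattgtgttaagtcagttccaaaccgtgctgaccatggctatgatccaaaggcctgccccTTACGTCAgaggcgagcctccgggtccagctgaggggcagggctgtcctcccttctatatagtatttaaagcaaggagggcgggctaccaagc
Fbp1: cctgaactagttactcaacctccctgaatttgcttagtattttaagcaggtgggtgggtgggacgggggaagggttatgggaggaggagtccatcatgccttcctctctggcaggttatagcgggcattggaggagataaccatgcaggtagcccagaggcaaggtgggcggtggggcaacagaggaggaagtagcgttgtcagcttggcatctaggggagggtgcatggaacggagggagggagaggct
Ppargc1a: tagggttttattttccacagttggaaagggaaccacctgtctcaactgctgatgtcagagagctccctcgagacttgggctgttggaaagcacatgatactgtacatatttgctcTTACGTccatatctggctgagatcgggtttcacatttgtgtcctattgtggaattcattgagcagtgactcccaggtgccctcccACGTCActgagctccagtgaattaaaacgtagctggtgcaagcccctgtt
*G6pc* held CAAAACA on the opposite strand at -174 to -168 and ACGTAA on both strands, the copies overlapping from -162 to -155. *Pck1* held ACGTAA on the opposite strand at -93 to -88, overlapping ACGTCA at -91 to -86. *Ppargc1a* held ACGTAA on the opposite strand at -135 to -130 and ACGTCA at -50 to -45, and the *Fbp1* stretch held none of the 4. Of 32851 promoters of that length in the table, 5.56% held CAAAACA, 3.17% GTAAACA, 6.47% ACGTCA and 2.4% ACGTAA. Promoters were listed for 8 of the 9 genes, all but *Gpd1*. Among the others, *Slc37a4* had matches to ACGTCA and ACGTAA, *Ldha* to ACGTCA and *Pck2* to CAAAACA, while *Pcx* had none. A match is a description of the letters and not a site, and a miss speaks only of this window.

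Per kilobase of exon, the mean level over all libraries was highest for *Pck1*, at 1451 CPM per kb. *Ldha* stood at 712 and *Fbp1* at 702 CPM per kb, followed by *Gpd1* at 253, *Pcx* at 191, *G6pc* at 152 and *Slc37a4* at 100 CPM per kb. *Ppargc1a* at 2.6 CPM per kb and *Pck2* at 1.42 CPM per kb were the scarcest, so their values rest on 129 to 910 and 59 to 289 counts per library. The genes also differed in how far their level ranged over the 14 groups. The highest group mean was 4.92 times the lowest for *G6pc* and 3.47 times for *Ppargc1a*, but 1.31 times for *Pcx*, with the other 6 genes between 1.65 and 1.99 times. *G6pc* ran from 148 CPM on 16-week HFD at 30 min to 727 CPM on chow at 120 min, *Pck1* from 2925 to 5204 CPM between the same groups, and *Ppargc1a* from 9.75 CPM on 16-week HFD at 15 min to 33.8 CPM on chow at 120 min. Neighbours in these orders were not separated. Of the 13 neighbouring pairs of groups, none was without overlap for *G6pc*, *Ppargc1a*, *Slc37a4*, *Pcx*, *Pck2* or *Gpd1*, and 1 was for each of *Pck1*, *Fbp1* and *Ldha*.

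The gene models used for counting place *G6pc* at chr11:101229044-101239217 (+), *Slc37a4* at chr9:44206259-44211048 (+), *Pcx* at chr19:4510472-4621752 (+) and *Pck1* at chr2:172978574-172984754 (+), all on mm9. *Pck2* lies at chr14:56159103-56168854 (+), *Fbp1* at chr13:62966113-62989596 (−), *Gpd1* at chr15:99548024-99555438 (+), *Ldha* at chr7:54101174-54110997 (+) and *Ppargc1a* at chr5:51845488-51945160 (−). No exon base of any of them is shared with a gene on the other strand. *Gpd1* shares 10.4% and *Ldha* 14.1% of their 40-base words with other transcripts, so reads of these could be split between copies, and the other 7 share 2.7% or less.

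The comparison of 16-week HFD with chow bears on hepatic insulin resistance, the subject of the study. In basal livers *G6pc* fell to well below its chow level and *Fbp1* fell more modestly, while *Pcx* rose. These 3 calls among 9 genes (33.3%) stood beside 32.3% of all genes tested, a like share, and the 2 lower ones beside 16.3% of all genes. *G6pc* had 205, 175 and 146 CPM in the 16-week HFD basal livers, against 415, 439 and 458 CPM in the chow basal livers. The groups were far apart, with a log2 fold change of -1.32 ± 0.37 (adjusted p = 0.0056). *Fbp1* had 846, 874 and 753 CPM on 16-week HFD, against 1152, 1111 and 1140 CPM on chow, a log2 fold change of -0.46 ± 0.13 (adjusted p = 0.00735). *Pcx* had 846, 916 and 955 CPM on 16-week HFD and 802, 702 and 659 CPM on chow, a log2 fold change of 0.33 ± 0.12 (adjusted p = 0.0333). The *Fbp1* and *Pcx* libraries of the diets did not overlap either. *Ppargc1a* had 11.4, 9.79 and 12.8 CPM on 16-week HFD and 15.6, 17.1 and 17.2 CPM on chow, separate groups that did not pass the test. Fitted on the compared groups alone it passed, at -0.54 (adjusted p = 0.00992). *Pck1* averaged 2944 and 3686 CPM with overlapping libraries. The calls for *G6pc* and *Fbp1* held in all 14 alternatives. That for *Pcx* was lost without replicate 2 or 3 of either group (log2 0.27 to 0.32, adjusted p 0.08 to 0.146) and was 0.06 on the log2 scale (adjusted p = 0.713) once trends with gene length and GC content were removed. With those trends removed *Gpd1* (-0.54, adjusted p = 0.00562) and *Slc37a4* (-0.37, adjusted p = 0.0365) were called lower. Without 16-week HFD basal replicate 1 *Ldha* was called lower (-0.61, adjusted p = 0.0454). The 16-week HFD basal libraries had a correlation of level with GC of 0.17 to 0.32, the chow basal libraries of -0.29 to -0.08.

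The diets could also be compared at each time after insulin and in metformin-treated mice. These 5 settings and the basal one share no library, so each gene was measured 6 times over.

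**Figure D1:**
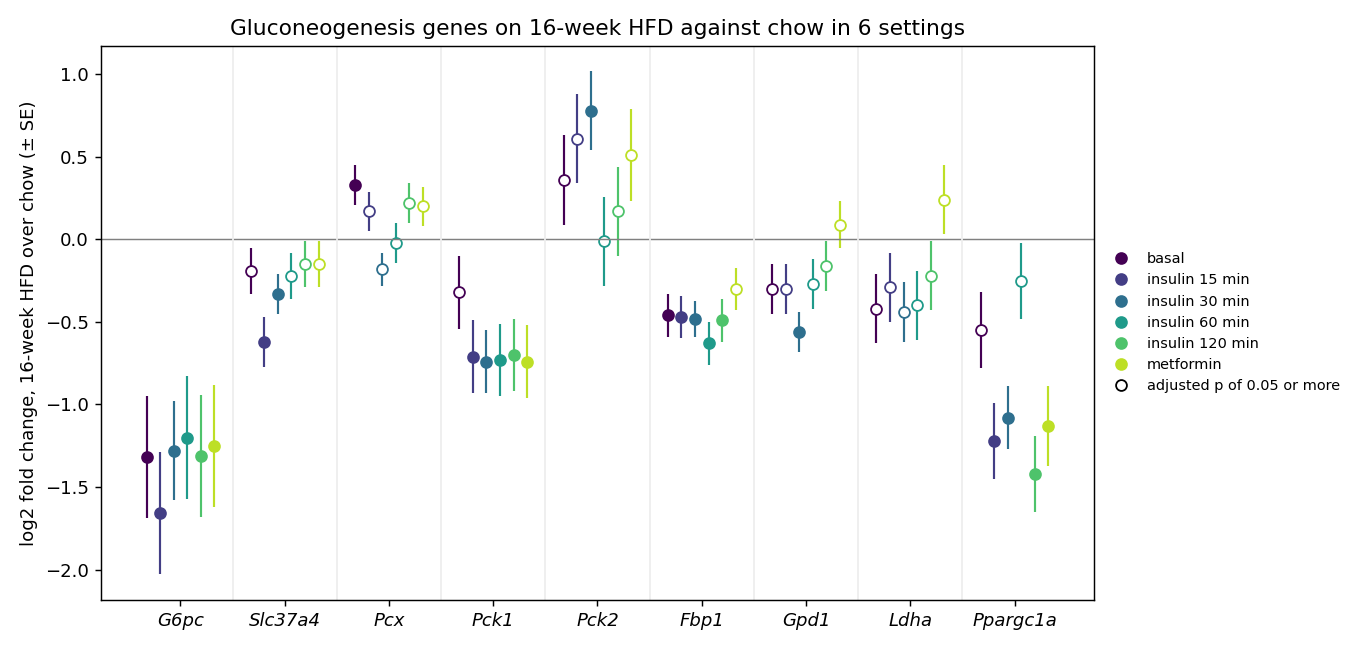
Log2 fold change ± SE of the 9 genes, 16-week HFD over chow, in 6 settings that share no library (basal, 4 times after insulin, metformin). Open points had an adjusted p of 0.05 or more. *G6pc* lies between -1.66 and -1.20 in all 6 settings, *Pck1* and *Fbp1* are negative in all 6, and *Pck2* and *Pcx* lie mostly above 0.

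At 15 min after insulin, 5 of the 9 genes (55.6%) were called, all lower on 16-week HFD, beside 24.4% of all genes called and 12.2% called lower. *G6pc* had 232, 183 and 231 CPM on 16-week HFD and 725, 542 and 775 CPM on chow, a log2 fold change of -1.66 ± 0.37 (adjusted p = 0.00138). *Slc37a4* had 193, 197 and 169 CPM on 16-week HFD and 296, 240 and 324 CPM on chow (log2 fold change -0.62 ± 0.15, adjusted p = 0.00222). *Ppargc1a* had 9.32, 10.6 and 9.35 CPM on 16-week HFD and 19.3, 17.7 and 31.1 CPM on chow (log2 fold change -1.22 ± 0.23, adjusted p = 0.000313). None of these libraries overlapped between the diets. *Pck1* averaged 3005 CPM on 16-week HFD and 4926 CPM on chow (-0.71 ± 0.22, adjusted p = 0.0183), and *Fbp1* 771 and 1066 CPM (-0.47 ± 0.13, adjusted p = 0.00978). Without replicate 3 of 16-week HFD the *Pck1* call was lost (-0.63, adjusted p = 0.0824). The *Fbp1* call was lost without replicate 1 of 16-week HFD or replicate 3 of chow (adjusted p = 0.0517 and 0.0717).

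At 30 min, 7 of the 9 genes (77.8%) were called, 6 of them lower, beside 37.3% of all genes called and 17.2% called lower, in the comparison with the most libraries. *G6pc* ran from 83 to 240 CPM over the 6 libraries on 16-week HFD, with a median of 129 CPM, against 336, 334 and 404 CPM on chow (log2 fold change -1.28 ± 0.30, adjusted p = 0.00131). *Ppargc1a* ran from 10.6 to 20.1 CPM on 16-week HFD, with a median of 15.7 CPM, against 32.2, 36.7 and 29.5 CPM on chow (-1.08 ± 0.19, adjusted p = 5.18e-05). For both genes every 16-week HFD library lay below every chow library. *Gpd1*, at 483 and 712 CPM on average, fell by 0.56 ± 0.12 on the log2 scale (adjusted p = 0.000695), *Pck1* by 0.74 ± 0.19 (adjusted p = 0.00245) and *Fbp1* by 0.48 ± 0.11 (adjusted p = 0.00128). *Slc37a4* fell by 0.33 ± 0.12 (adjusted p = 0.0316), with overlapping libraries. *Pck2* was called higher, at 7.07 CPM on 16-week HFD and 4.09 CPM on chow (0.78 ± 0.24, adjusted p = 0.0102).

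The 6 libraries at 30 min on 16-week HFD fell into 2 runs of replicate numbers that differed in these genes. Replicates 1 to 3 had 94.2, 108 and 83 CPM of *G6pc* and replicates 4 to 6 had 150, 211 and 240 CPM. For *Pck2* they had 10, 7.93 and 11.2 CPM and 3.84, 5.06 and 4.4 CPM. Against chow at 30 min, *G6pc* stood at -1.90 on the log2 scale (adjusted p = 4.12e-05) with replicates 1 to 3 alone and at -0.85 (adjusted p = 0.0552) with replicates 4 to 6 alone, and *Pck2* at 1.25 (adjusted p = 8.46e-06) and 0.10 (adjusted p = 0.736). *Pck1*, *Fbp1*, *Gpd1* and *Ppargc1a* kept their call with either 3. Replicates 1 to 3 had correlations of level with GC of 0.19 to 0.22 and replicates 4 to 6 of -0.22 to -0.13, and the part of this in the results was not tested. The *Pck2* call was also lost without chow replicate 3 (0.64, adjusted p = 0.0752), and that of *Slc37a4* without replicate 1 or 4 of 16-week HFD or replicate 1 or 2 of chow (-0.31 to -0.20, adjusted p 0.0624 to 0.29).

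At 60 min 3 of the 9 genes (33.3%) were called, all lower on 16-week HFD, beside 22.4% of all genes called and 11.5% called lower. *Fbp1* had 803, 780 and 678 CPM on 16-week HFD and 1135, 1228 and 1131 CPM on chow (log2 fold change -0.63 ± 0.13, adjusted p = 0.000786). *G6pc* had 347, 93.4 and 115 CPM on 16-week HFD and 508, 354 and 415 CPM on chow (-1.20 ± 0.37, adjusted p = 0.0163). *Pck1* had 4689, 2626 and 1919 CPM on 16-week HFD and 4797, 4852 and 5671 CPM on chow (-0.73 ± 0.22, adjusted p = 0.0168). In both, replicate 1 of 16-week HFD stood close to the chow libraries, and it was also the highest of its group for *Igfbp1*, an insulin-repressed gene, at 221 CPM against 41.7 and 27.2 CPM in the other libraries. Without it the log2 fold change was -2.03 for *G6pc* (adjusted p = 0.00016) and -1.17 for *Pck1* (adjusted p = 0.000253). The *G6pc* call was lost without replicate 2 or 3 of 16-week HFD or replicate 1 of chow (-1.06 to -0.88, adjusted p 0.0718 to 0.129), and the *Pck1* call without replicate 2 or 3 of 16-week HFD or replicate 3 of chow (-0.65 to -0.48, adjusted p 0.0642 to 0.14). With only the groups compared in the fit, the calls of *G6pc* (-1.20, adjusted p = 0.114) and *Pck1* (-0.73, adjusted p = 0.144) were lost. *Ppargc1a*, at 12.3, 11 and 16.1 CPM on 16-week HFD and 19.3, 15.3 and 12.4 CPM on chow, overlapped at this time.

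At 120 min 4 of the 9 genes (44.4%) were called, all lower on 16-week HFD, beside 28.2% of all genes called and 13.6% called lower. *Ppargc1a* showed its largest difference between the diets, with 12.7, 11.6 and 13.6 CPM on 16-week HFD and 22.6, 38.1 and 40.7 CPM on chow (log2 fold change -1.42 ± 0.23, adjusted p = 4.30e-05). *G6pc* had 236, 280 and 366 CPM on 16-week HFD and 891, 712 and 579 CPM on chow (-1.31 ± 0.37, adjusted p = 0.00758). *Fbp1* averaged 802 and 1124 CPM (-0.49 ± 0.13, adjusted p = 0.00619) and *Pck1* 3203 and 5204 CPM (-0.70 ± 0.22, adjusted p = 0.0178). No library of these 4 genes overlapped between the diets. The *Pck1* call was lost without replicate 1 of 16-week HFD or replicate 2 or 3 of chow (-0.66 to -0.53, adjusted p 0.0543 to 0.119).

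With metformin, *G6pc*, *Pck1* and *Ppargc1a* were lower on 16-week HFD, 3 of the 9 genes (33.3%) beside 20.4% of all genes called and 9.25% called lower. *G6pc* had 230, 161 and 244 CPM in the 16-week HFD metformin livers and 425, 421 and 660 CPM in the chow metformin livers (log2 fold change -1.25 ± 0.37, adjusted p = 0.014). *Pck1* had 2047, 3208 and 3522 CPM on 16-week HFD and 4345, 5240 and 5060 CPM on chow (-0.74 ± 0.22, adjusted p = 0.017). *Ppargc1a* had 7.46, 10.4 and 11.6 CPM on 16-week HFD and 27.6, 23 and 13.8 CPM on chow (-1.13 ± 0.24, adjusted p = 0.00109). The libraries of the diets were separate for all 3. The *G6pc* call was lost without replicate 2 of 16-week HFD metformin or replicate 3 of chow metformin (adjusted p = 0.0519 and 0.0882), and that of *Pck1* without replicate 1 of 16-week HFD metformin or replicate 2 or 3 of chow metformin (-0.71 to -0.52, adjusted p 0.0528 to 0.166). With only the groups compared the calls of *Ppargc1a* (-1.14, adjusted p = 0.0845) and *Pck1* (-0.75, adjusted p = 0.138) were lost, and with length and GC trends removed *Fbp1* was also called lower (-0.53, adjusted p = 0.00207).

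Over the 6 settings *G6pc* was called lower in all 6, *Fbp1* and *Pck1* in 5, *Ppargc1a* in 4, *Slc37a4* in 2 and *Gpd1* in 1. *Ldha* was called in none, with log2 fold changes of -0.44 to 0.24, and *Pcx* and *Pck2* were each called higher in 1. At 30 min *Ldha* was called lower under 4 alternatives, DESeq2 among them (-0.45, adjusted p = 0.0374). With length and GC trends removed *Pcx* was called lower at that time (-0.33, adjusted p = 0.00635). The mean difference over the 6 settings was tested in the same fit. It called all 9 genes, at a background of 62.6% of all genes, so the sizes say more than the count. The largest falls were those of *G6pc* (-1.34 ± 0.15, adjusted p = 9.95e-10) and *Ppargc1a* (-0.94 ± 0.09, adjusted p = 1.10e-10). Over all genes tested the median was 0.02, and 0.24 with the sign left out. *Pck1* fell by 0.66 ± 0.09 on the log2 scale (adjusted p = 8.20e-08) and *Fbp1* by 0.47 ± 0.05 (adjusted p = 1.96e-09). *Slc37a4*, *Gpd1* and *Ldha* fell by 0.28, 0.25 and 0.25, close to the unsigned median of 0.24 over all genes. *Pck2*, the mitochondrial carboxykinase, rose by 0.40 ± 0.11 (adjusted p = 0.00164), opposite to the cytosolic *Pck1*, though at 3.5 to 11.2 CPM on 16-week HFD and 3.19 to 5.22 CPM on chow its libraries overlapped widely. *Pcx* rose by 0.12 ± 0.05 (adjusted p = 0.0298), a call lost in 13 of 49 alternatives and a value of -0.02 with length and GC trends removed. Counted by library, 19 of the 21 livers on 16-week HFD had less *G6pc* than any of the 18 on chow, and 18 of 21 had less *Fbp1*. The same count was 15 for *Ldha*, 12 for *Ppargc1a*, 10 for *Pck1*, 9 for *Gpd1* and 1 for *Pcx*. For *Slc37a4* and *Pck2* it was 0. These counts were not made for all genes, so no background share stands beside them.

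Of 5 periportal markers of the liver lobule, 4 were called lower on 16-week HFD in the mean over the 6 settings. That mean called 62.6% of all genes in either direction, so the count by itself does not set these markers apart. Of the 5 general hepatocyte markers 3 were called lower and 1 higher in the same mean. Of 5 macrophage, 4 endothelial and 5 stellate cell markers 5, 3 and 3 were called higher and 0, 0 and 1 lower. The summed level of 5 periportal hepatocyte markers, the zone where gluconeogenesis is known to be strongest, was 1678 to 2842 CPM on 16-week HFD, with a median of 1963, and 2195 to 3298 CPM on chow, with a median of 2623. The 5 pericentral markers summed to 7325 to 19360 CPM on 16-week HFD, with a median of 14241, and 6931 to 20851 CPM on chow, with a median of 14313, and 1 was called higher and 1 lower. The 5 adipocyte markers summed to 931 to 3977 CPM on 16-week HFD and 83.9 to 700 CPM on chow, carried by *Car3*, while *Adipoq*, *Plin1* and *Lep* stayed at or below 2.65 CPM in every library. The part of these markers, or of the macrophage markers, in the differences between the diets was not tested.

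After 6 weeks of HFD, *G6pc* did not stand apart from chow. It had 510, 448 and 216 CPM in the 6-week HFD basal livers and 415, 439 and 458 CPM in the chow basal livers, so that 1 library lay far below chow and the others at or above it. *Slc37a4* was the only one of the 9 called (11.1%), beside 11% of all genes called and 5.03% called lower. It had 167, 194 and 168 CPM on 6-week HFD and 247, 232 and 236 CPM on chow, a log2 fold change of -0.43 ± 0.14 (adjusted p = 0.0475). That call stood at the edge. It was lost without any 1 of the 6 libraries (-0.51 to -0.39, adjusted p 0.0541 to 0.169). A replicate block (-0.43, adjusted p = 0.0524) or no filter on low counts (-0.43, adjusted p = 0.0626) also ended it. *Ppargc1a*, at 12.1, 12.1 and 11.8 CPM on 6-week HFD and 15.6, 17.1 and 17.2 CPM on chow, had separate groups without passing the test over all libraries. Fitted on the compared groups alone it passed, at -0.46 (adjusted p = 0.00986).

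Set against 6-week HFD, 16-week HFD had lower *G6pc*, again 1 of the 9 genes (11.1%) beside 10.2% of all genes called and 6.03% called lower. The levels were 205, 175 and 146 CPM on 16-week HFD and 510, 448 and 216 CPM on 6-week HFD, with a log2 fold change of -1.16 ± 0.36 (adjusted p = 0.0369). The groups did not overlap, but replicate 3 of 6-week HFD lay close to the 16-week HFD libraries. Leaving out any library of 16-week HFD, or replicate 1 or 2 of 6-week HFD, ended the call (-1.29 to -0.92, adjusted p 0.0542 to 0.179). So did fitting only the groups compared (-1.16, adjusted p = 0.0599) or removing length and GC trends (-1.13, adjusted p = 0.0542). Both HFD comparisons use the chow or 16-week HFD basal libraries named above, so their values are not independent of each other.

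In metformin-treated mice the 6-week HFD livers had less *Ppargc1a*, with 10.1, 13 and 9.4 CPM on 6-week HFD metformin and 27.6, 23 and 13.8 CPM on chow metformin. This was 1 of the 9 genes (11.1%), beside 4.43% of all genes called and 2.16% called lower, at a log2 fold change of -0.99 ± 0.24 (adjusted p = 0.0106). The call was lost without replicate 1 or 3 of 6-week HFD metformin or replicate 1 of chow metformin (-0.94 to -0.76, adjusted p 0.0532 to 0.0861), and with only the groups compared (-0.99, adjusted p = 0.0706). *G6pc* had 193, 305 and 194 CPM on 6-week HFD metformin and 425, 421 and 660 CPM on chow metformin. Those libraries were also separate, at -1.12 ± 0.36, without passing the test (adjusted p = 0.0692). It passed in 5 alternatives, the fit with a replicate block among them (-1.11, adjusted p = 0.0354).

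Insulin was injected to follow the acute response of the fasted liver over 120 min. On chow, *Ppargc1a* was the only one of the 9 genes to pass the test at any time. It rose by 120 min, when 1 of the 9 genes (11.1%) was called beside 5.08% of all genes called and 2.43% called higher. At 15, 30 and 60 min edgeR called none of the 9, beside 1.13%, 0.0711% and 1.39% of all genes, with 0, 2 and 1 of them at an unadjusted p below 0.05 and 0, 1 and 0 called by DESeq2. The basal libraries had 15.6, 17.1 and 17.2 CPM of *Ppargc1a*, those at 15 min 19.3, 17.7 and 31.1 CPM, those at 30 min 32.2, 36.7 and 29.5 CPM, those at 60 min 19.3, 15.3 and 12.4 CPM and those at 120 min 22.6, 38.1 and 40.7 CPM. All 3 libraries at 15 min, all 3 at 30 min and all 3 at 120 min lay above basal, while those at 60 min lay on both sides of it. The difference between 30 and 60 min was not tested. At 120 min the log2 fold change over basal was 1.02 ± 0.23 (adjusted p = 0.00567), and without replicate 3 at 120 min it was 0.87 (adjusted p = 0.0607). At 30 min it was 0.98 ± 0.23 (adjusted p = 0.0678), a near equal size that passed under 4 alternatives, DESeq2 among them (0.98, adjusted p = 0.0092).

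**Figure D2:**
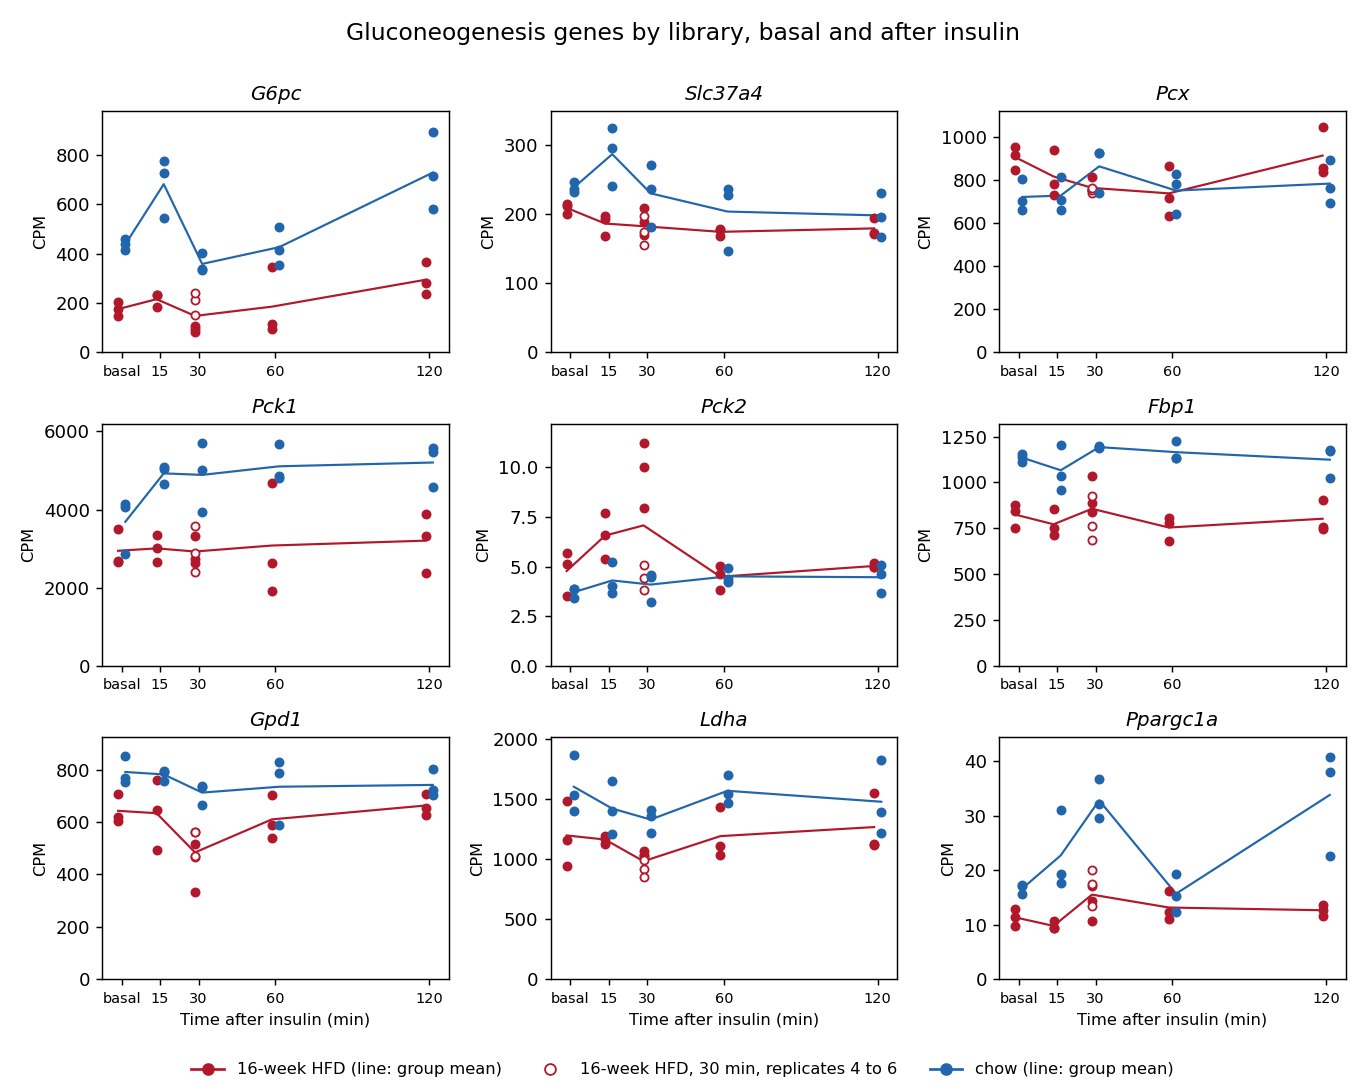
Level in CPM of the 9 genes in each library against time after insulin in minutes, on 16-week HFD (red) and chow (blue), with lines through group means. *Ppargc1a* on chow is at 29.5 to 36.7 CPM at 30 min and 22.6 to 40.7 CPM at 120 min, against 9.32 to 20.1 CPM in the 16-week HFD libraries plotted, and open points mark replicates 4 to 6 at 30 min.

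None of the enzyme genes fell past the test after insulin on chow. *G6pc* had 415, 439 and 458 CPM in basal livers, 725, 542 and 775 CPM at 15 min, 336, 334 and 404 CPM at 30 min, 508, 354 and 415 CPM at 60 min and 891, 712 and 579 CPM at 120 min. All 3 libraries at 30 min lay below basal and all 3 at 15 and at 120 min above it. The log2 fold changes were 0.64 ± 0.36, -0.29 ± 0.36, -0.04 ± 0.36 and 0.74 ± 0.36 at 15, 30, 60 and 120 min, and the interval of the one at 30 min ran from -1.02 to 0.44. *Pck1* averaged 4926, 4887, 5107 and 5204 CPM at the 4 times and 3686 CPM in basal livers, and each time differed by 0.41 to 0.50 on the log2 scale without passing the test (adjusted p 0.221 to 0.713). In limma's test of the authors' deposited normalized values it passed at 15 min (0.49, adjusted p = 0.0341) and 120 min (0.44, adjusted p = 0.0243). *Fbp1* stayed between 959 and 1228 CPM in these 15 libraries, with fold changes of -0.09 to 0.07. *Igfbp1* had 110, 105 and 123 CPM at 30 min and 191, 162 and 279 CPM in basal livers, and had risen to 547, 1102 and 616 CPM at 120 min (1.84 ± 0.52, adjusted p = 0.0306). That call was lost without replicate 2 or 3 at 120 min or any 1 of the 3 basal libraries (1.46 to 2.09, adjusted p 0.051 to 0.174), and with length and GC trends removed and a replicate block (1.83, adjusted p = 0.0576).

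On 16-week HFD none of the 36 gene and time values passed edgeR's test, where 6 had an unadjusted p below 0.05 and DESeq2 called 1, *Gpd1* at 30 min. Of all genes, 0% were called at 15 min, 3.55% at 30 min, 0.00711% at 60 min and 0% at 120 min. *Gpd1* had 331 to 561 CPM over the 6 libraries at 30 min and 617, 707 and 603 CPM in basal livers, groups that did not overlap (-0.41 ± 0.12, adjusted p = 0.0548). *Ppargc1a* had 9.32, 10.6 and 9.35 CPM at 15 min, 10.6 to 20.1 CPM at 30 min, 12.3, 11 and 16.1 CPM at 60 min and 12.7, 11.6 and 13.6 CPM at 120 min, beside 11.4, 9.79 and 12.8 CPM in basal livers. The high levels seen on chow at 120 min were not reached in any of these libraries. *G6pc* at 120 min had 236, 280 and 366 CPM, all above the 205, 175 and 146 CPM of basal livers. That difference, 0.74 ± 0.36 on the log2 scale, was the same size as on chow, and neither passed the test (adjusted p = 0.591 on 16-week HFD and 0.282 on chow). On chow it passed under 2 alternatives, with only the groups compared (0.73, adjusted p = 0.0253) and in limma's test of the authors' deposited normalized values (0.71, adjusted p = 0.0348).

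Whether the response to insulin differed between the diets was tested as an interaction. None of the 36 values passed edgeR's test, beside 0.00711%, 0%, 0% and 0.839% of all genes called at 15, 30, 60 and 120 min. Without adjustment 5 had a p below 0.05, and DESeq2 called 0. For *Ppargc1a* at 120 min the response on 16-week HFD was smaller than on chow by 0.87 ± 0.33 on the log2 scale, with an interval from -1.53 to -0.20 and an adjusted p of 0.204. For *Pcx* at 30 min the difference was -0.51 ± 0.16 (adjusted p = 0.153), and *G6pc* at 120 min differed by 0.01 with an interval from -1.02 to 1.04, which is wide. The larger *Ppargc1a* difference between the diets at 15, 30 and 120 min than in basal livers is therefore not shown to be a difference in response.

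Metformin-treated livers were set against basal livers on each diet. On 16-week HFD *Fbp1* and *Gpd1* rose, 2 of the 9 genes (22.2%) beside 28.4% of all genes called and 16.9% called higher. On 6-week HFD and on chow edgeR called none of the 9, beside 3.17% and 1.94% of all genes, with 2 and 1 of them at an unadjusted p below 0.05 and 0 called by DESeq2 on either diet. *Fbp1* had 1404, 918 and 1027 CPM with metformin and 846, 874 and 753 CPM in basal livers on 16-week HFD (log2 fold change 0.44 ± 0.13, adjusted p = 0.0129). *Gpd1* had 1017, 839 and 770 CPM with metformin and 617, 707 and 603 CPM in basal livers (0.45 ± 0.15, adjusted p = 0.0198). In both the groups were separate, and metformin replicate 1 was the highest library. Without that library *Fbp1* was at 0.24 (adjusted p = 0.233) and *Gpd1* at 0.33 (adjusted p = 0.174). The *Fbp1* call was also lost without basal replicate 3 (0.38, adjusted p = 0.0725) and the *Gpd1* call without basal replicate 1 or 3 (0.42 and 0.40, adjusted p = 0.0548 and 0.0825). The 9 metformin libraries had correlations of level with gene length of -0.61 to -0.13 and the other 36 libraries of -0.22 to 0.29, and with length and GC trends removed *Fbp1* was at 0.17 (adjusted p = 0.365), while *Pcx* was called at 0.39 (adjusted p = 0.0166). With only the groups compared neither *Fbp1* (0.39, adjusted p = 0.263) nor *Gpd1* (0.40, adjusted p = 0.214) was called. Cell type markers moved in the same comparison. Of 5 hepatocyte markers 4 were called higher, with sums of 116676 to 135196 CPM with metformin and 84246 to 104271 CPM in basal livers. Of 4 endothelial markers 2 were called lower, with sums of 65.3 to 106 CPM with metformin and 109 to 195 CPM in basal livers, and of 5 stellate cell markers 2 were called lower, with sums of 163 to 209 CPM with metformin and 135 to 317 CPM in basal livers. The part of these markers in the *Fbp1* and *Gpd1* values was not tested.

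**Figure D3:**
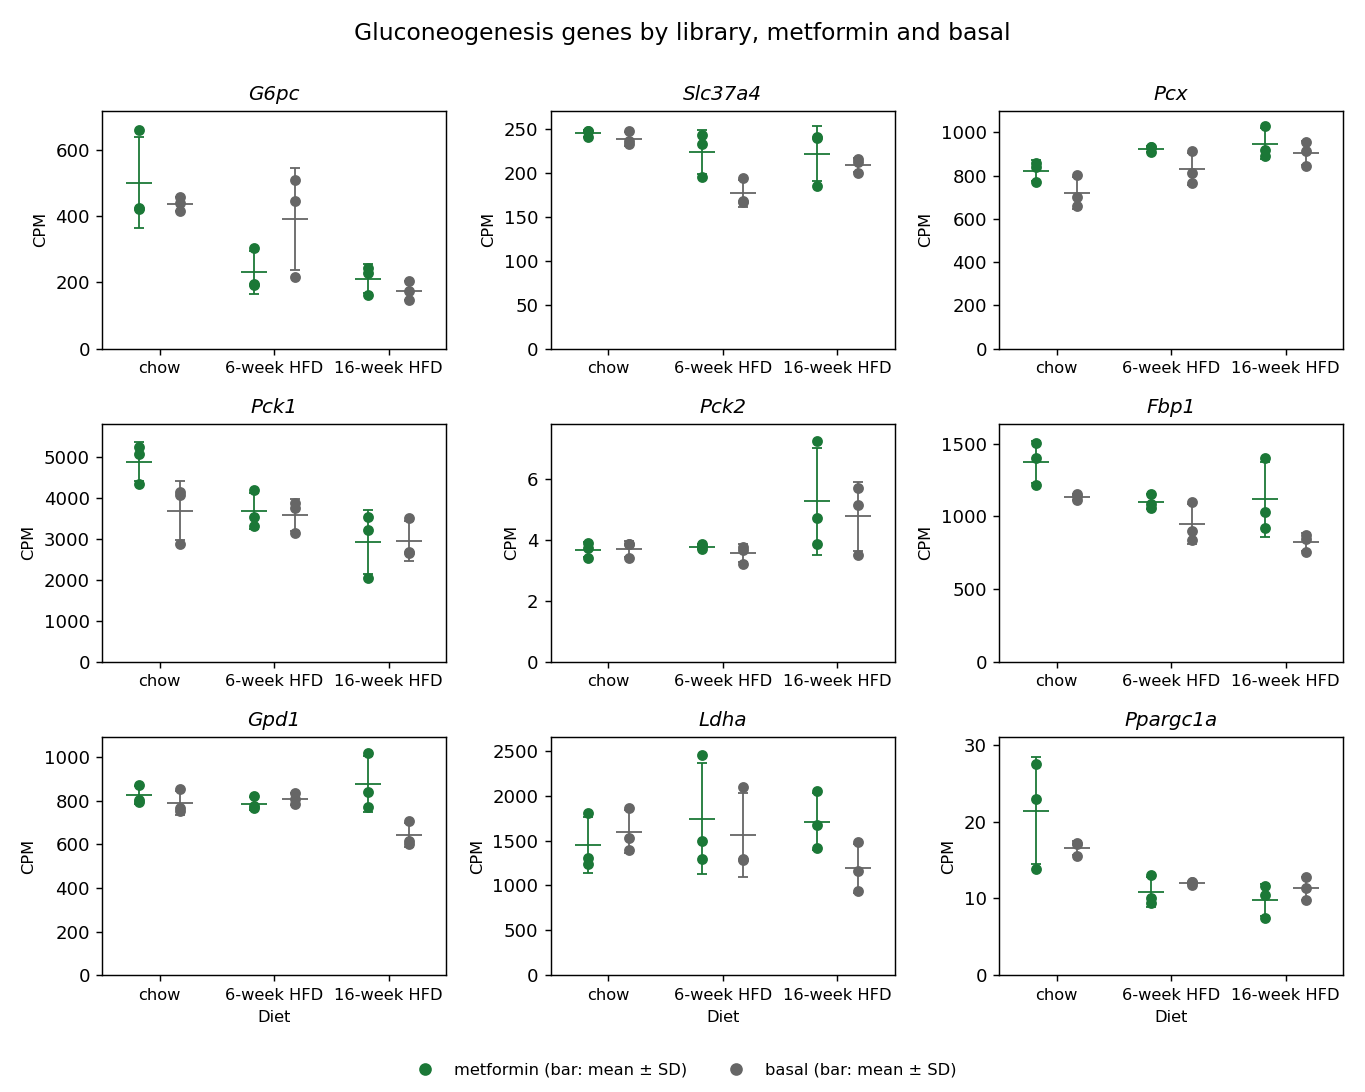
Level in CPM of the 9 genes in metformin-treated (green) and basal (grey) livers on chow, 6-week HFD and 16-week HFD, each point a library, with bars for the mean ± SD of 3. *G6pc* on 6-week HFD is at 193 to 305 CPM with metformin and 216 to 510 CPM in basal livers, and *Fbp1* and *Gpd1* on 16-week HFD are higher with metformin without overlap.

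*G6pc*, the last enzyme of glucose release, did not pass the test with metformin on any diet. On chow it had 425, 421 and 660 CPM with metformin and 415, 439 and 458 CPM in basal livers. On 6-week HFD it had 193, 305 and 194 CPM with metformin and 510, 448 and 216 CPM in basal livers, a log2 difference of -0.76 ± 0.36 (adjusted p = 0.225) whose interval lay below 0. On 16-week HFD it had 230, 161 and 244 CPM with metformin and 205, 175 and 146 CPM in basal livers. *Pck1* averaged 4882 CPM with metformin and 3686 CPM in basal livers on chow, 3674 and 3586 CPM on 6-week HFD, and 2925 and 2944 CPM on 16-week HFD. *Ldha* on 16-week HFD had 1675, 2051 and 1414 CPM with metformin and 1484, 1159 and 940 CPM in basal livers (0.52 ± 0.21, adjusted p = 0.0584). As a mean over the 3 diets *Fbp1* was the only gene of the 9 called, at 0.31 ± 0.08 (adjusted p = 0.00236), beside 31.2% of all genes, and the call was lost with length and GC trends removed (0.13, adjusted p = 0.149 or 0.191). In that fit *Pcx* was called instead, at 0.28 (adjusted p = 0.00216). The metformin response on HFD less that on chow was called for none of 18 values by edgeR, beside 0.0427% of all genes on 6-week HFD and 4.96% on 16-week HFD. There 1 had an unadjusted p below 0.05 and DESeq2 called 0. For *G6pc* on 6-week HFD that difference was -0.96 ± 0.51, with an interval that reached 0.07.

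Other enzymes and transporters of glucose production, a list of 25 of which 23 were tested, differed more often downward than upward on 16-week HFD, by count of calls. In basal livers 3 were called higher and 6 lower, beside 32.3% of all genes called, with a median log2 fold change of -0.18 beside 0.02 over all genes. At 15, 30, 60 and 120 min after insulin 7, 10, 11 and 9 were lower and 1, 0, 1 and 1 higher, beside 24.4%, 37.3%, 22.4% and 28.2% of all genes called in either direction. Under metformin the diets differed otherwise, with 1 higher and 3 lower at a positive median of 0.08, beside 20.4% of all genes. *Gyk*, glycerol kinase, fell by 1.19 ± 0.18 on the log2 scale in basal livers (adjusted p = 5.26e-06) and *Got1*, the cytosolic aspartate aminotransferase of the malate-aspartate shuttle, by 2.40 ± 0.40 (adjusted p = 2.22e-05). With metformin on 16-week HFD 8 of the 23 rose and 0 fell, at a median of 0.01 and beside 28.4% of all genes called and 16.9% called higher. They included *Gapdh* (0.76 ± 0.13, adjusted p = 8.14e-05) and *Mdh1*, cytosolic malate dehydrogenase (0.63 ± 0.12, adjusted p = 0.000313). With only the groups compared in the fit both calls were lost (adjusted p = 0.157 and 0.163), and with length and GC trends removed the differences were 0.44 and 0.38 (adjusted p = 0.0028 and 0.00485).

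Enzymes of glucose use and their regulators differed in the other direction. Of 7 tested, 5 were higher and 1 lower on 16-week HFD in basal livers, beside 32.3% of all genes called, with a median of 0.77. At 15, 30, 60 and 120 min after insulin 3, 5, 4 and 3 were higher and 1, 0, 0 and 0 lower. These counts stood beside 24.4%, 37.3%, 22.4% and 28.2% of all genes called in either direction. Under metformin 3 were higher and 0 lower, beside 20.4% of all genes called. *Pklr*, the liver pyruvate kinase that works against *Pcx* and *Pck1*, rose by 1.64 ± 0.27 on the log2 scale (adjusted p = 1.50e-05), and *Pfkl*, the liver phosphofructokinase that works against *Fbp1*, by 1.03 ± 0.12 (adjusted p = 1.07e-07). The member called lower was *Pdk4*, which restrains pyruvate dehydrogenase (-1.98 ± 0.71, adjusted p = 0.0298). Its call was lost without any 1 of the 3 libraries on 16-week HFD or without replicate 2 or 3 of chow (-2.02 to -1.73, adjusted p 0.0547 to 0.0965).

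Among 25 regulators of these genes, 7 were higher and 1 lower in basal livers on 16-week HFD, with a median of 0.16. That is a like share to the 32.3% of all genes called. In the other settings the directions were mixed, with medians of -0.14 to -0.01. At 15, 30, 60 and 120 min after insulin 3, 4, 4 and 6 were higher and 1, 5, 4 and 3 lower. Of all genes, 24.4%, 37.3%, 22.4% and 28.2% were called in either direction at these times. Under metformin 0 were higher and 3 lower, beside 20.4% of all genes called. In basal livers *Cebpa* (0.67 ± 0.13, adjusted p = 0.000161), *Foxo3* (1.30 ± 0.29, adjusted p = 0.000624) and *Foxo1* (0.62 ± 0.17, adjusted p = 0.00376), transcription factors that activate *Pck1* or *G6pc*, were higher on 16-week HFD, where *G6pc* was lower. *Creb1* was the one called lower (-0.45 ± 0.14, adjusted p = 0.0144). With length and GC trends removed *Cebpa* differed by 0.28 (adjusted p = 0.0584) and *Creb1* by -0.18 (adjusted p = 0.208). The *Creb1* call was also lost without replicate 2 of chow (-0.34, adjusted p = 0.11) or replicate 2 of 16-week HFD (-0.43, adjusted p = 0.0515). On chow 120 min after insulin 4 were higher and 1 lower, beside 5.08% of all genes called. The higher ones were *Foxo1*, *Crtc2*, *Klf15* and the kinase *Sik1* (2.10 ± 0.55, adjusted p = 0.0172). The calls of *Sik1*, *Crtc2* and *Klf15* were lost without replicate 2 at 120 min (1.65, 0.33 and 0.60, adjusted p = 0.131, 0.0836 and 0.0689). Those of *Foxo1*, *Crtc2* and *Klf15* were lost without replicate 3 at 120 min (0.54, 0.29 and 0.42, adjusted p = 0.112, 0.155 and 0.264). Leaving out basal replicate 2 ended all 4 of these (adjusted p 0.0577 to 0.176), basal replicate 3 those of *Sik1*, *Crtc2* and *Klf15* (adjusted p 0.0578 to 0.132), and basal replicate 1 those of *Sik1* and *Klf15* (adjusted p = 0.0846 and 0.0609). With metformin on 16-week HFD 1 was higher and 9 lower, beside 28.4% of all genes called, at a median of -0.23, and *Cebpb* had the smallest adjusted p of these (-1.49 ± 0.27, adjusted p = 0.000161, and 0.0814 with only the groups compared).

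The 8 genes that PGC-1α is known to coactivate were read beside *Ppargc1a*. On 16-week HFD in basal livers, where *Ppargc1a* itself was not called, 5 were lower and 1 higher beside 32.3% of all genes called, with a median of -0.32. At 15, 30, 60 and 120 min after insulin 4, 4, 2 and 2 were lower and 0, 1, 1 and 1 higher. Of all genes, 24.4%, 37.3%, 22.4% and 28.2% were called in either direction at these times. Under metformin, where *Ppargc1a* was called lower, 2 were higher and 0 lower at a median of 0.19, beside 20.4% of all genes. *Cycs*, cytochrome c, fell by 0.83 ± 0.14 on the log2 scale (adjusted p = 4.09e-05), while *Alas1*, the first enzyme of heme synthesis, rose by 1.81 ± 0.38 (adjusted p = 0.000397). With metformin on 16-week HFD 5 of the 8 rose and 0 fell, beside 28.4% of all genes called, at a median of 0.40, while *Ppargc1a* itself had 7.46, 10.4 and 11.6 CPM with metformin and 11.4, 9.79 and 12.8 CPM in basal livers. On chow at 120 min after insulin, when *Ppargc1a* had risen, 0 of the 8 were called, beside 5.08% of all genes. Their median was -0.22. Of 3 insulin-repressed genes, *Igfbp1* (-2.54 ± 0.54, adjusted p = 0.000405) and *Pdk4* were lower on 16-week HFD in basal livers, and *Irs2* was not called there.

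The genes whose group means most resembled each member's were sought among 9327 genes over the 14 groups, as a correlation of mean log2 CPM. Many groups differ by diet, which all such genes share. For *G6pc* they were *Kctd9*, *Sfmbt1*, *Kdm3a* and *Rnf103* (r = 0.93) and *Cyp4f17* (r = 0.92). *Fbp1* had the closest matches, *Csrp2*, *Adck5*, *Pigx*, *Cpsf3* and *Baat*, at r = 0.97. For *Pck1* they were *Znf512b*, *March7*, *Nfx1* and *Epb4.1l5* (r = 0.94 each) and *Xpot* (r = 0.93), and for *Ppargc1a* they included *Sin3a* (r = 0.92) and *Ankrd33b*, *Slc39a4* and *E2f3* (r = 0.90 each). *Slc37a4* lay closest to *Cblc* (r = 0.86) and *Gys2* (r = 0.85), *Pcx* to *Masp2* (r = 0.89), *Pck2* to *Ralb* (r = 0.91), *Gpd1* to *Mup3* (r = 0.96) and *Ldha* to *Psmc2* (r = 0.95). Between members, *G6pc* and *Pck1* correlated at 0.88 over the 14 groups, *Gpd1* and *Ldha* at 0.93, and *Pck2* ran against *Gpd1* at -0.72.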

How the data were processed

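Per the labels' protocols, frozen livers were pulverised and poly(A) RNA was made into TruSeq v1 libraries and sequenced in pairs of 40-50 bases. Per the submitters' processing notes, the authors used TopHat 1.4.0, HTSeq and DESeq2 1.0.18 with the mouse build mm9. The deposited raw counts per gene, 18193181 to 50253493 per library, are the basis of every test. The normalized signal that the authors deposited for the insulin series, read counts adjusted for gene length and GC by CQN and DESeq2, served only in 1 alternative, with limma 3.58.1. No column of sample values was left unused, and each row names a gene.

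Counts were tested with edgeR 4.0.16 in R 4.3.3 (filterByExpr with a minimum count of 10, TMM scaling, glmQLFit and glmQLFTest, 1 coefficient per group, no replicate block). Benjamini-Hochberg adjustment ran over 14067 genes in each of 28 comparisons, and intervals are at 95%. Fold changes use edgeR's prior count of 0.125 and the likeness of patterns log2 CPM with a prior count of 2. The script was tested on simulated data. No 2 libraries were identical, and replicates differed by a chi-square per gene of 9.4 or more over 54 pairs. The 9 genes and the lists were chosen with earlier results of these data known, and so was the mean over 6 settings. All 9 genes were followed in every comparison, and from each list the text could name, in each kind of comparison, the up to 4 called genes with the smallest adjusted p, with *Igfbp1* and *Irs2* in any; *Creb1*, *Pdk4* and *Klf15* were named after their values were seen, and some genes within the rule are not reported here. Same-numbered libraries deviated together, with every correlation over 0.1, only for metformin against basal on 16-week HFD (0.24, 0.15 and 0.12) and 6-week HFD (0.41, 0.16 and 0.3). For 6-week HFD against chow in basal livers the correlations were 0.52, -0.1 and 0.41. Alternatives were RLE scaling, no filter, DESeq2 1.42.0, removal of length and GC trends, the block, only the groups compared, and leaving out libraries. Depth limits *Pck2* and *Ppargc1a* most, and counting error alone is covered by their counts.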

Additional observations from a re-analysis of the deposited data

Results flagged for a closer look

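*Pcx* 30 min after insulin on 16-week HFD was the 1 group value of 11 tested in which a library stood far from the rest. Replicate 1 had 814 CPM, and the other 5 libraries had 741 to 762 CPM. The gap between that library and the next was 0.724 of the whole range, above Dixon's 95% critical value for 6 samples. Chance gives such a gap in about 1 of 20 groups.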

How the results depend on the processing

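Of 915 alternative values for the 41 calls of the 9 genes, 84 lost the call, 2 reversed and the others kept both. Both reversals were the mean *Pcx* difference over 6 settings, at -0.02 with length and GC trends removed and -0.04 with trends removed and a replicate block. Counts of calls moved as follows, and the cause was not tested. Diet without insulin or metformin had 5 calls of 27, 3 with no filter, and 3 to 5 without 1 library. Diet under metformin had 4 of 18, 7 with length and GC trends removed, with the block or without it, 2 with only the groups compared, and 2 to 4 without 1 library. Insulin on chow had 1 of 36, 2 with trends removed (with the block or without it), 3 with only the groups compared, 4 with limma on the deposited values, 2 with DESeq2, and 0 to 1 without 1 library. Insulin on 16-week HFD had 0 of 36, 1 with RLE scaling or DESeq2, 2 with the replicate block, 3 with block and trends removed, 2 with the first 3 libraries at 30 min alone, and 0 to 1 without 1 library. Metformin had 2 of 27, 0 with only the groups compared, 1 without the 2 libraries that correlated lowest with length (chosen after the data were seen, as were replicates 4 to 6 alone and the means), and 0 to 3 without 1 library. Diet within insulin times (19, and 17 to 19 without 1 library), both interactions (0) and the means over settings (10, and 9 to 10) stayed within 1.5 times. Where same-numbered libraries deviated together, metformin on 16-week and 6-week HFD, the block changed no call. For 6-week HFD against chow in basal livers, where the correlations were 0.52, -0.1 and 0.41, the block ended the *Slc37a4* call (-0.43, adjusted p = 0.0524). No label pairs the libraries beyond their number. *Pck2*, at 59 to 289 counts per library, is the gene for which depth limits the comparisons most.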
